A study of Mus musculus with 18 samples.

Results

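The collagen chain genes of the mouse are described here across 5 sorted cell populations of normal muscle and of a hedgehog-driven tumor. Each gene encodes an alpha chain of a collagen, and a gene was taken when its symbol had the form Col, a number, a and a number. Of the 22180 genes with a probe set of their own on the array, 44 were collagen chain genes, represented by 47 probe sets, and a gene with more than 1 was represented by its brightest on average. The mice had in common aP2-Cre, in which the Fabp4 (aP2) promoter drives Cre, and a tdTomato reporter that Cre switches on. Tomato therefore marked cells with past or present Cre activity, which is a history of the promoter and not a single cell type.

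Normal sternocleidomastoid muscle, a neck muscle, was taken at day 21 from mice of strain B6;SJL with genotype aP2-Cre/+;tdTomato/+ and gave Tomato-positive cells (marked muscle cells, n = 3 arrays) and Tomato-negative cells (unmarked muscle cells, n = 3). For 1 array, repeat 1 of the marked muscle cells, the genotype label reads aP2-Cre/+;tdTomato. Tumors came from mice of strain BJ;SJL;B6.129 that also carried SmoM2/+, an allele of Smoothened that keeps hedgehog signalling switched on. They gave 3 populations, Tom-/Pecam1- (unmarked tumor cells), Tom+/Pecam1- (marked Pecam1- tumor cells) and Tom+/Pecam1+ (marked Pecam1+ tumor cells), with n = 4 arrays each, where repeats 1 to 3 were of day 48 and repeat 4 of day 38. The series title names the tumor as a fusion-negative rhabdomyosarcoma and its origin from endothelial progenitors as the question. Tissue was digested with collagenase B and Dispase II for 1 hour before sorting. Tumor and muscle differed in age, strain, SmoM2 and the sorting gates together, so these cannot be told apart.

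Collagen chains wind around each other in groups, within a type or between sister types, and are trimmed and crosslinked outside the cell. The fibrillar types form the tensile fibrils of connective tissue, type IV forms the network of basement membranes that underlies vessel and muscle cells, and type VI forms beaded filaments around cells. Fibril-associated collagens sit on fibrils, multiplexins lie in basement membrane zones and release fragments such as endostatin, and short-chain collagens form sheets. In skeletal muscle most interstitial collagen is made by fibroblasts of the connective tissue, while vessel cells and muscle fibers have basement membranes of their own.

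Promoter sequence was available for 35 of the 44 genes in RefSeq (build GRCm38.p6), and the 250 bases before the transcription start are printed for 5 of them. Col6a4, Col6a5 and Col6a6 are shown because these neighbours on chromosome 9 differed in the tumor, and Col1a2 and Col3a1 because they had some of the largest differences between populations. Their windows lay at chr9:106096692-106096941, minus strand (Col6a4), chr9:105960644-105960893, minus strand (Col6a5), chr9:105828086-105828335, minus strand (Col6a6), chr6:4505368-4505617, plus strand (Col1a2) and chr1:45311288-45311537, plus strand (Col3a1). Capitals mark any of 5 letter strings searched on both strands, namely CCAAT (the CCAAT box), GGGCGG (a GC box), TATAAA (the TATA box), GACCACCCA (a site of the hedgehog effectors of the GLI family) and CAGCTG (an E-box of the muscle regulators), and no matches overlapped in these 5 windows.
Col6a4: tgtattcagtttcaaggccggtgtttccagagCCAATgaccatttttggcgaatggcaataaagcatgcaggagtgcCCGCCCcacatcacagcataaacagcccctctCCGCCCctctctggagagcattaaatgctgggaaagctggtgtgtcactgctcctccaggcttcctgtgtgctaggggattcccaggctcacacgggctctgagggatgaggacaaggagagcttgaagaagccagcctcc
Col6a5: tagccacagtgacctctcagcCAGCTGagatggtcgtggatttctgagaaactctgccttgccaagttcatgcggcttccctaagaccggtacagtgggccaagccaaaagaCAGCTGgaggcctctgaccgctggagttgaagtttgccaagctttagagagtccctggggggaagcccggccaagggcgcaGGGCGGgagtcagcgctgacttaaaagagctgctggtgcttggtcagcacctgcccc
Col6a6: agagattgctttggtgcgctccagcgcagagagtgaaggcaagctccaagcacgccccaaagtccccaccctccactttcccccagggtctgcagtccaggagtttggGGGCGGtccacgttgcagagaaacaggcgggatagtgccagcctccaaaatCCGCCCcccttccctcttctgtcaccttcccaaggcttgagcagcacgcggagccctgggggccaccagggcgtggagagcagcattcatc
Col1a2: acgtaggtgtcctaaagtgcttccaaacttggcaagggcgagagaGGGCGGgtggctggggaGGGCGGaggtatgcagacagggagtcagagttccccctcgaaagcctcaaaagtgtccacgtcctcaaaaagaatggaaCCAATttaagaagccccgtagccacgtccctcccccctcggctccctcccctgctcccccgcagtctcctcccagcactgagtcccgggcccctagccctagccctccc
Col3a1: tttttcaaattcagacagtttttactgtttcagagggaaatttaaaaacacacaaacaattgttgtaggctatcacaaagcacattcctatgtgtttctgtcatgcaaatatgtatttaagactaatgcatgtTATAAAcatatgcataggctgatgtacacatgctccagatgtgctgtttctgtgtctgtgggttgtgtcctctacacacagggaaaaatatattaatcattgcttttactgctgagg
The Col6a5 window held CAGCTG at 2 places, which 13% of all 32851 windows of this length held at least once. Col6a4 and Col1a2 held 1 CCAAT and 2 GC boxes each, Col6a6 held 2 GC boxes, and Col3a1 held the TATAAA string and none of the others. Over the 38 windows of collagen genes, CCAAT stood in 13, against 33.8% of all windows, GGGCGG in 22 against 32.7%, TATAAA in 5 against 12.4%, and CAGCTG in 6 against 13%. GACCACCCA stood in 0 of the 38 and in 0.225% of all windows. A match is a description of letters and not a bound site.

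Values are log2 intensities, and differences between populations are log2 differences with their standard error (SE). Muscle arrays had medians of 5.041 to 5.105 and tumor arrays of 5.410 to 5.438, so tumor was compared with muscle on values centred on each array's median, while the levels printed are as deposited. In the tumor arrays the mean over the 3 populations was the same for every repeat number, within 7.67e-05 at all 41345 probe sets. A high value in a tumor population therefore lowers the others of that repeat, and p-values that use tumor arrays are too small. The main fits share an estimate of the spread over all 18 arrays, so this includes those of the muscle comparison. The 12 endothelial markers averaged 10.24 to 10.39 in the marked muscle arrays and 10.42 to 11.08 in the marked Pecam1+ tumor arrays, against 5.81 to 7.21 in the arrays of the other 3 populations, and all 12 were higher in marked than in unmarked muscle cells. Marked muscle cells, sorted without Pecam1 according to their labels, thus carried endothelial markers.

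Of the 44 collagen genes 42 passed the filter on low values, and Col9a1 and Col19a1 were too dim. An adjusted p under 0.05 is written as a call. In muscle 27 of the 42 were called between marked and unmarked cells (39.7% of all 16011 genes tested were), 3 higher in marked cells (19.1% of all genes) and 24 lower (20.5%). In the tumor 29 were called between marked Pecam1+ and marked Pecam1- cells (44.6% of all genes), 3 higher (21%) and 26 lower (23.6%), and 24 between marked Pecam1+ and unmarked cells (41.7%), 4 higher (20.5%) and 20 lower (21.2%). Between marked Pecam1- and unmarked tumor cells 15 were called (25.4%), 12 higher (13.4%) and 3 lower (12%). With the repeat number as a block, in a fit on the tumor arrays alone, 8 were called, with 6 higher and 2 lower. The 3 tumor comparisons share arrays and do not support each other. The median log2 difference of the 42 was -0.41 in muscle, -0.66 against marked Pecam1- and -0.31 against unmarked tumor cells, where that of all genes tested was -0.00, 0.01 and 0.02.

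The populations with the most endothelial marker signal had the lowest levels of many collagens. On centred group means 19 of the 42 tested genes were lowest in marked muscle cells and 10 in marked Pecam1+ tumor cells, while 18 were highest in marked Pecam1- tumor cells, 10 in unmarked muscle cells and 8 in unmarked tumor cells. These counts were not made for all genes, so whether they are particular to collagens was not tested. They include genes whose group means hardly differed, such as Col7a1 (range 0.16) and Col23a1 (0.24). In sorted samples of many cells, fewer cells of a type and less RNA per cell cannot be told apart. Most fibroblast markers moved with these differences: 10 of 11 tested were lower and 1 higher (by 0.61) in marked than in unmarked muscle cells. In marked Pecam1+ tumor cells 10 were lower and 1 higher, both against marked Pecam1- cells (by 3.04) and against unmarked cells (by 2.07). The list's mean was 5.89 to 6.34 in marked and 9.88 to 10.06 in unmarked muscle arrays, and 6.90 to 7.17 in marked Pecam1+, 9.63 to 10.12 in marked Pecam1- and 10.18 to 10.57 in unmarked tumor arrays. Markers of other cell types moved in muscle too: 8 of 8 tendon cell markers (median difference -4.13), 9 of 10 myogenic (-2.90), 6 of 10 pericyte and smooth muscle (-1.87), 5 of 6 Schwann cell (-1.49) and 6 of 10 leukocyte markers (-1.11) were lower in marked cells, and 0 of these higher. In marked Pecam1+ tumor cells 10 of 10 myogenic, 9 of 10 pericyte and smooth muscle, 7 of 8 tendon cell and 4 of 10 leukocyte markers were lower than in marked Pecam1- cells (1 leukocyte marker was higher). Between marked Pecam1- and unmarked tumor cells the 10 leukocyte markers were all lower in marked cells (median -2.01, list means 6.95 to 7.39 against 8.93 to 9.91) and the 10 myogenic markers all higher (median 1.54). The part of these markers in the collagen differences was not tested.

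**Figure D1:**
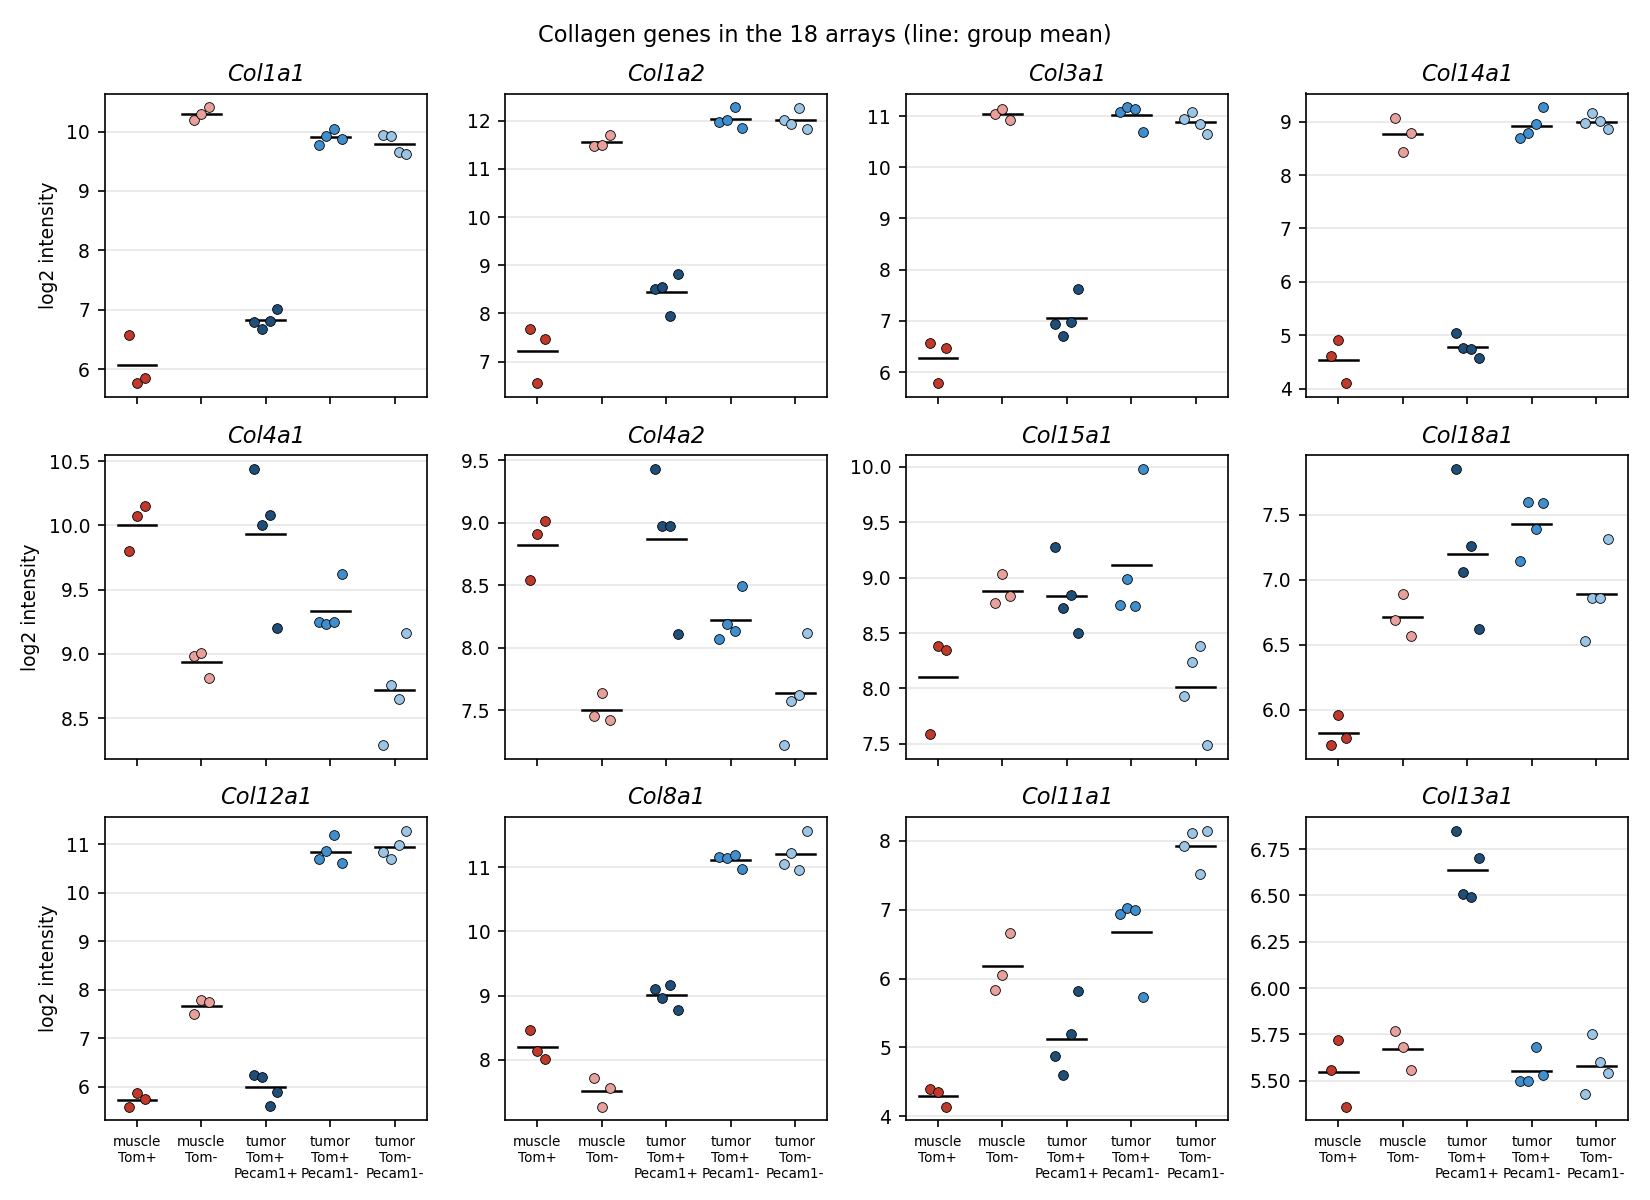
Log2 intensity (y axis, as deposited, its range differing between panels) of 12 collagen genes in the 18 arrays of the 5 populations (x axis); each point is an array and each line the group mean. Col1a1, Col1a2, Col3a1, Col14a1 and Col12a1 are low in both Tomato-positive populations with endothelial markers, Col4a1 and Col4a2 lie highest in those, Col12a1 and Col8a1 lie higher in the Pecam1- tumor populations than in muscle, and Col13a1 stands out in marked Pecam1+ tumor cells. The difference between tumor and muscle array medians is not removed in the panels.

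Of the 11 fibrillar genes, 9 were lower in marked than in unmarked muscle cells and 0 higher, with a median difference of -1.89, and in marked Pecam1+ tumor cells 8 were lower than in marked Pecam1- and 9 than in unmarked cells, again with 0 higher. Col1a1 and Col1a2 encode the chains of type I collagen, the main fibril of tendon, bone and muscle connective tissue. Col1a1 read 6.58, 5.76 and 5.85 in the 3 marked and 10.20, 10.30 and 10.41 in the 3 unmarked muscle arrays, a difference of -4.24 ± 0.17 (SE; 18.9-fold lower, adjusted p = 9.49e-12). Col1a2 read 7.67, 6.55 and 7.46 against 11.48, 11.49 and 11.71, a difference of -4.33 ± 0.24 (adjusted p = 2.42e-10). The groups lay far apart for both genes, and marked repeat 1 was the highest marked array for each. Col3a1, the type III chain of distensible tissues and vessel walls, read 6.57, 5.78 and 6.47 in marked and 11.04, 11.13 and 10.93 in unmarked cells, which is 27.2-fold lower (-4.76 ± 0.22, adjusted p = 3.54e-11).

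In the tumor the same 3 genes separated marked Pecam1+ cells from both Pecam1- populations, whose ranges overlapped each other. Col1a1 read 6.79, 6.67, 6.81 and 7.02 in the 4 marked Pecam1+ arrays, 9.77, 9.92, 10.04 and 9.88 in marked Pecam1- and 9.95, 9.92, 9.66 and 9.62 in unmarked cells, and fell by 3.08 against marked Pecam1- cells (SE 0.15, adjusted p = 1.93e-11). Col1a2 read 8.50, 8.54, 7.94 and 8.82 in marked Pecam1+, 11.97, 12.01, 12.28 and 11.85 in marked Pecam1- and 12.02, 11.93, 12.27 and 11.82 in unmarked cells, with a difference of -3.58 ± 0.21 against marked Pecam1- cells (adjusted p = 2.45e-10). Col3a1 read 6.93, 6.71, 6.98 and 7.63 in marked Pecam1+, 11.07, 11.17, 11.14 and 10.68 in marked Pecam1- and 10.95, 11.08, 10.84 and 10.64 in unmarked cells, with a difference of -3.95 ± 0.19 (adjusted p = 2.29e-11). Between marked Pecam1- and unmarked tumor cells none of the 3 passed the test (Col1a1 0.11 ± 0.15, 95% interval -0.20 to 0.42; Col1a2 0.02 ± 0.21, -0.42 to 0.46; Col3a1 0.14 ± 0.19, -0.27 to 0.54). Marked Pecam1+ repeat 4, the array of day 38, held the highest value of its group for all 3 genes.

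Type V chains, which set the width of type I fibrils, moved in the same comparisons. In muscle Col5a1 differed by -2.69 ± 0.23, Col5a2 by -2.51 ± 0.16 and Col5a3 by -1.53 ± 0.18 (adjusted p = 5.78e-08, 1.58e-09 and 2.68e-06). Between marked Pecam1+ and marked Pecam1- tumor cells they differed by -2.45 ± 0.20, -2.90 ± 0.14 and -0.96 ± 0.16 (adjusted p = 2.11e-08, 2.47e-11 and 8.05e-05). A further probe set of Col5a1 gave smaller differences, -1.31 in muscle and -1.22 in this tumor comparison, and those of Col1a2 and Col6a1 gave -3.83 and -3.13 in muscle. Col24a1, a minor fibrillar chain, was lower in marked muscle cells (-0.65, adjusted p = 0.0127) and in marked Pecam1+ against marked Pecam1- tumor cells (-1.19, adjusted p = 1.48e-05). Without unmarked muscle repeat 1 the muscle call of Col24a1 had an adjusted p of 0.0572.

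Type XI chains nucleate fibrils, mainly in cartilage, and Col11a1 differed between all 3 tumor populations. Col11a1 read 7.92, 8.11, 7.52 and 8.15 in unmarked tumor cells, 6.94, 7.02, 7.0 and 5.74 in marked Pecam1- cells and 4.87, 4.60, 5.20 and 5.82 in marked Pecam1+ cells. Unmarked cells lay above every array of the other 2. Repeat 4 was the lowest of the marked Pecam1- arrays and the highest of the marked Pecam1+ arrays, which overlapped there. The equal repeat means tie these repeat 4 values to each other. Col11a1 was 2.38-fold lower in marked Pecam1- than in unmarked cells (-1.25 ± 0.29, adjusted p = 0.00378) and lower again in marked Pecam1+ cells (-1.55 ± 0.29, adjusted p = 0.000255). In muscle it read 4.39, 4.36 and 4.14 in marked and 5.84, 6.06 and 6.66 in unmarked cells (-1.89 ± 0.33, adjusted p = 0.000167). Markers of tendon cells, which as a list averaged 9.04 to 9.49 in unmarked, 6.89 to 7.73 in marked Pecam1- and 5.13 to 5.58 in marked Pecam1+ tumor arrays, moved with it (6 of 8 lower in marked Pecam1- than in unmarked cells). Chondrocyte markers did so only in part: 3 of 6 were lower and 1 higher in that comparison, and 2 lower with 4 not called between the marked populations. Their mean in unmarked cells was 7.41 in repeat 2 and 5.81 to 6.14 in the other repeats. Their part was not tested.

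Other fibrillar differences were small. Col11a2 passed the test in muscle (-0.30, adjusted p = 0.0434) and between marked Pecam1- and unmarked tumor cells (-0.29, adjusted p = 0.0426), but with the repeat block its adjusted p was 0.119 and 0.169, and 3 of 6 and 6 of 8 fits that left out 1 array lost the call (adjusted p up to 0.216 and 0.152). Col24a1 passed between the same 2 tumor populations (0.52, adjusted p = 0.0307) with overlapping groups, and that call was lost with the repeat block (0.142) and in 6 of 8 fits that left out 1 array (up to 0.108). Col27a1, a fibrillar chain of developing cartilage, passed in none of the 7 comparisons and ranged from -0.26 in muscle to 0.36 in marked Pecam1+ tumor against marked muscle cells.

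Col2a1, the type II chain that makes up cartilage fibrils, rested on 1 tumor repeat. It read 6.33, 8.36, 6.37 and 6.32 in unmarked, 6.26, 5.15, 6.20 and 6.19 in marked Pecam1- and 6.05, 5.14, 6.08 and 6.14 in marked Pecam1+ tumor cells, and 5.24 to 5.39 in marked and 5.50 to 5.84 in unmarked muscle cells. Repeat 2 was far the highest of the unmarked arrays and the lowest of both marked populations, in keeping with the equal repeat means. The difference between marked Pecam1+ and unmarked cells, -0.99 (adjusted p = 0.0441), had an adjusted p of 0.167 with the repeat block, 0.148 without unmarked repeat 2 and 0.0676 without repeat 2 of all 3 populations, where it was -0.25. The 7 chondrocyte markers averaged 7.41 in unmarked repeat 2 against 5.81 to 6.14 in the other unmarked arrays, and among them Cnmd read 8.20, Snorc 8.65, Acan 8.13 and Hapln1 7.20 there. Their part in the Col2a1 value was not tested.

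**Figure D2:**
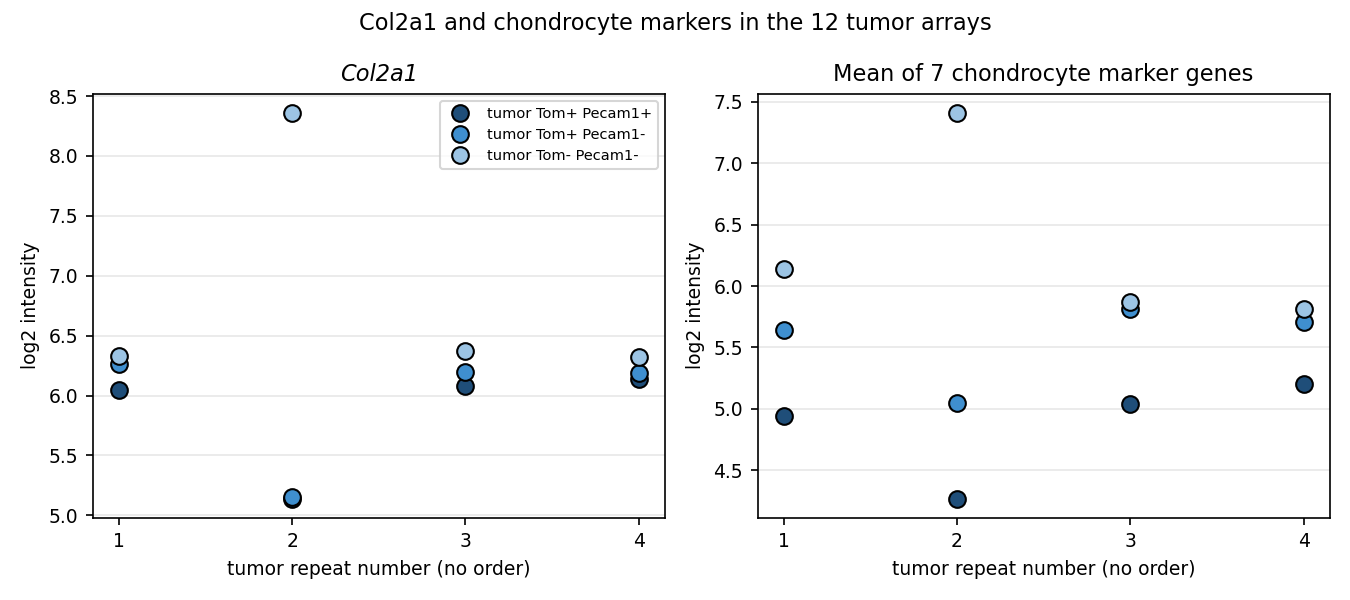
Log2 intensity (y axis) of Col2a1 (left) and mean log2 intensity of 7 chondrocyte marker genes (right) in the 12 tumor arrays by repeat number (x axis, an arbitrary label); each point is an array, coloured by population. Unmarked repeat 2 stands highest in both panels, at 8.36 and 7.41, and the other 2 populations of repeat 2 are at their lowest.

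Type IV genes split by chain. Col4a1 and Col4a2 encode the chains found in nearly all basement membranes and lie head to head on chromosome 8 with transcription starts 21 bases apart. Col4a1 read 9.80, 10.07 and 10.15 in marked and 8.98, 9.01 and 8.81 in unmarked muscle cells, higher by 1.07 ± 0.24 (2.1-fold, adjusted p = 0.00181). Col4a2 read 8.54, 8.91 and 9.01 against 7.45, 7.64 and 7.42, higher by 1.32 ± 0.26 (2.49-fold, adjusted p = 0.000499). For both genes each marked array lay above each unmarked one, against the direction of the fibrillar genes. The other 4 type IV genes were lower in marked muscle cells, Col4a5 at -1.03 ± 0.19 (adjusted p = 0.000234) and Col4a3, Col4a4 and Col4a6 at -0.28, -0.38 and -0.44.

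In the tumor the means of Col4a1 and Col4a2 were ordered marked Pecam1+ over marked Pecam1- over unmarked, with the day 38 repeat apart. Col4a1 read 10.44, 10.0, 10.08 and 9.20 in marked Pecam1+, 9.25, 9.23, 9.25 and 9.62 in marked Pecam1- and 8.29, 8.76, 8.65 and 9.16 in unmarked cells. Col4a2 read 9.43, 8.97, 8.97 and 8.11 in marked Pecam1+, 8.07, 8.19, 8.13 and 8.49 in marked Pecam1- and 7.22, 7.57, 7.62 and 8.12 in unmarked cells. Repeat 4 was the lowest marked Pecam1+ array and the highest array of both other populations, for both genes, and the marked populations overlapped through it. The equal repeat means tie these values, so they are not separate observations. The marked Pecam1+ array of repeat 4 was also the one with the lowest endothelial list mean, given above, whose part was not tested. Against unmarked cells marked Pecam1+ cells were higher by 1.21 ± 0.21 for Col4a1 and 1.24 ± 0.22 for Col4a2 (adjusted p = 0.000156 and 0.000221), and without repeat 4 of every population by 1.60 and 1.65. Neighbouring populations differed by less: marked Pecam1+ exceeded marked Pecam1- cells by 0.59 and 0.65 (adjusted p = 0.0311 and 0.0258), and marked Pecam1- exceeded unmarked cells by 0.62 for Col4a1 (adjusted p = 0.0387), while Col4a2 at 0.59 did not pass (adjusted p = 0.0635). With the repeat block these 3 calls were lost (adjusted p = 0.131, 0.113 and 0.177), and 6, 6 and 7 of the 8 fits that left out 1 array lost them too, at up to 0.116, 0.0994 and 0.142. Without repeat 4 of every population the excess of marked Pecam1+ over marked Pecam1- cells was 0.93 for Col4a1 and 0.99 for Col4a2 (adjusted p = 6.98e-05 and 7.48e-05).

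Col4a5 and Col4a6, neighbours on the X chromosome whose starts lie 1343 bases apart, were highest among tumor cells in the marked Pecam1- population. Col4a5 read 6.58, 6.31, 6.44 and 5.93 there, 5.10, 5.56, 5.56 and 5.56 in unmarked and 5.29, 5.10, 4.97 and 5.48 in marked Pecam1+ tumor cells, and 4.79, 5.07 and 4.72 in marked and 6.16, 5.91 and 5.59 in unmarked muscle cells. Every marked Pecam1- array lay above every array of the other tumor populations. Col4a5 rose by 0.87 ± 0.16 over unmarked cells (1.83-fold, adjusted p = 0.000808) and Col4a6 by 0.66 ± 0.12 (adjusted p = 0.000541), and marked Pecam1+ cells were lower than marked Pecam1- cells (-1.11 ± 0.16 and -0.60 ± 0.12, adjusted p = 2.16e-05 and 0.000349). All 10 myogenic markers moved the same way between marked Pecam1- and unmarked cells, with list means of 8.66 to 9.24 and 6.77 to 7.99, and were lower in marked Pecam1+ cells (5.23 to 6.10), while all 10 leukocyte markers were lower in marked Pecam1- than in unmarked cells. Their part was not tested.

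Col4a3 and Col4a4, chains of kidney, lung and eye basement membranes, moved by small amounts. Col4a3 read 5.34, 5.15 and 5.21 in marked and 5.63, 5.48 and 5.43 in unmarked muscle cells, and 4.89 to 5.14 in marked Pecam1+, 4.70 to 4.97 in marked Pecam1- and 4.96 to 5.10 in unmarked tumor cells. Neither gene passed in any of the 3 tumor comparisons. Their muscle calls (adjusted p = 0.0272 and 0.00872) did not hold in every fit: that of Col4a3 was lost with the repeat block (0.0831) and in 3 of 6 fits that left out 1 array (up to 0.115), and that of Col4a4 without unmarked repeat 1 (0.0583). The muscle call of Col4a6 (adjusted p = 0.0139) was lost without marked repeat 3 (0.0555) or unmarked repeat 3 (0.053).

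**Figure D3:**
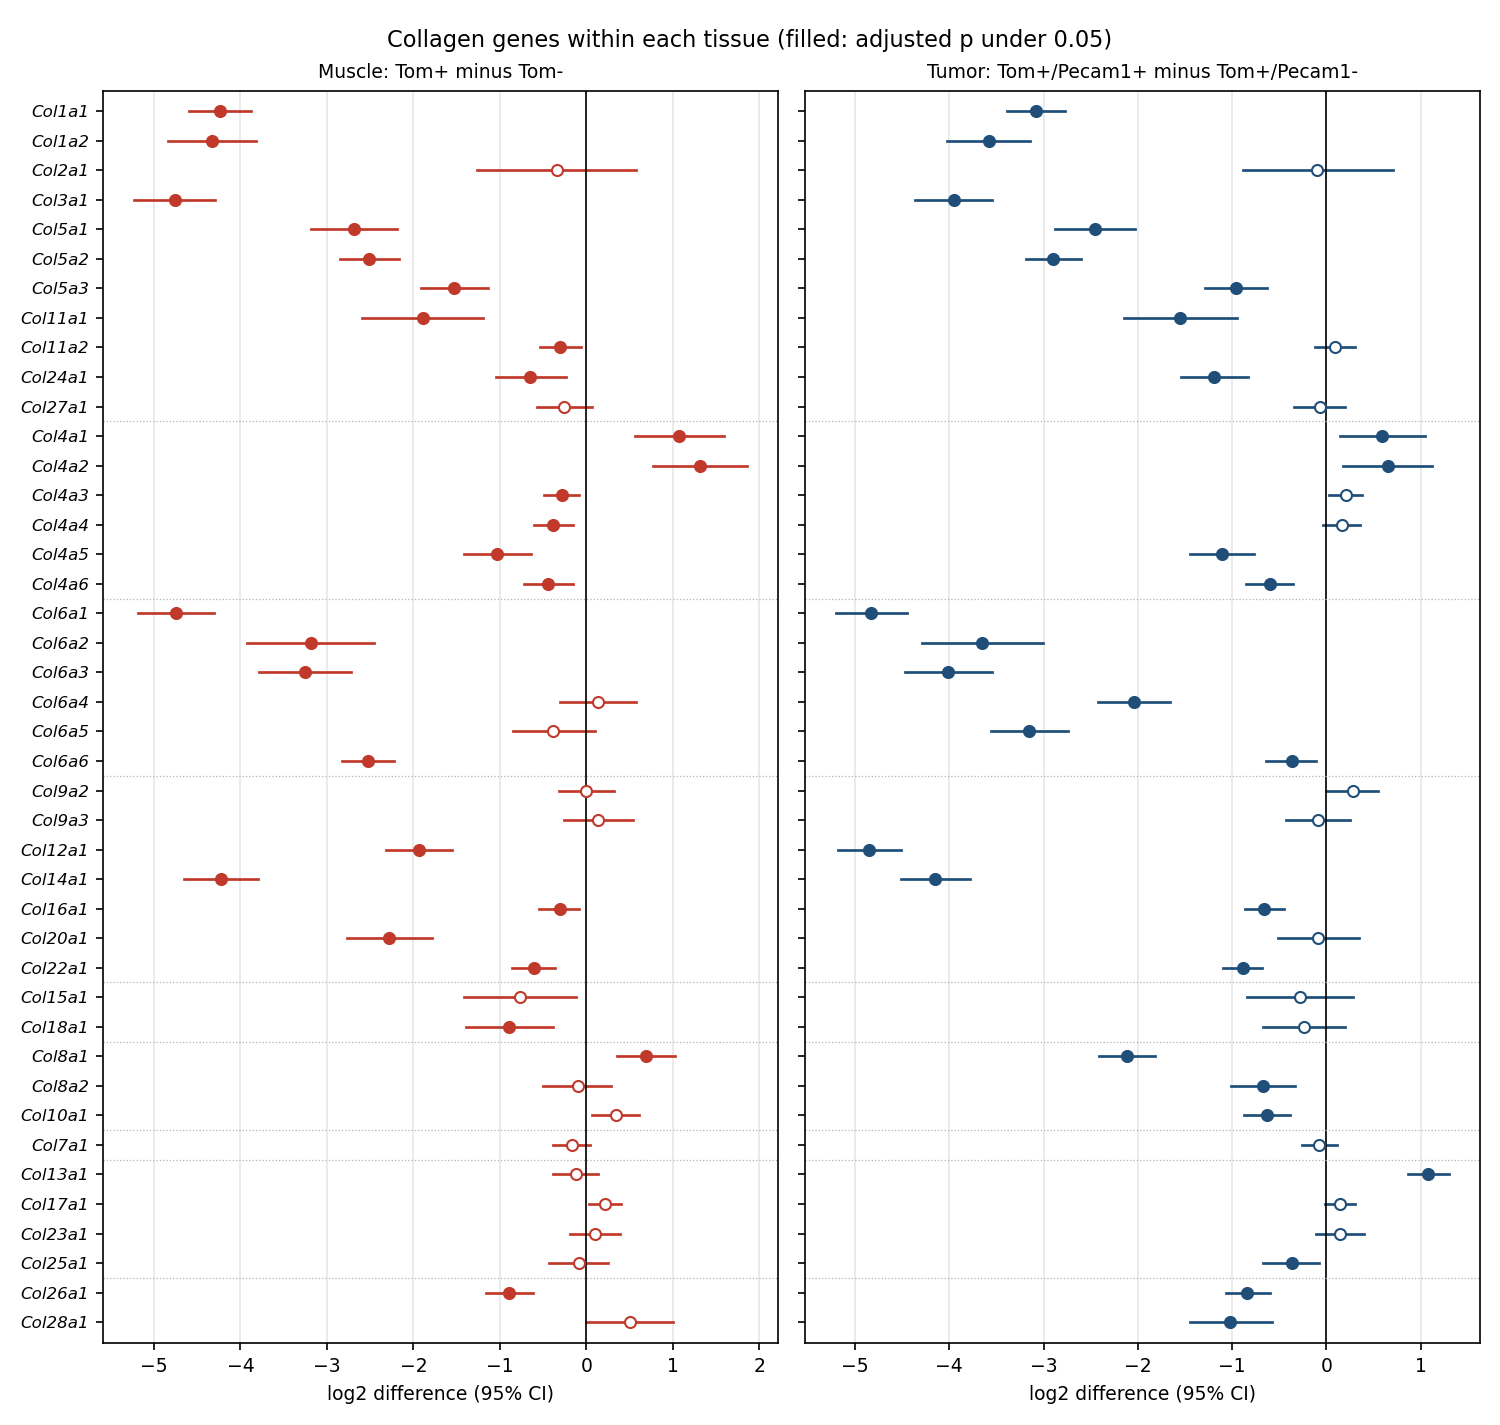
Log2 difference (x axis, with 95% confidence interval from limma) of the 42 tested collagen genes (y axis, dotted lines between classes) for marked minus unmarked muscle cells (left) and marked Pecam1+ minus marked Pecam1- tumor cells (right); filled points passed an adjusted p of 0.05. Most fibrillar genes, Col6a1 to Col6a3, Col12a1 and Col14a1 lie far to the left in both, and Col4a1 and Col4a2 to the right in both. The panels use different arrays and different x ranges, and Col6a4, Col6a5 and Col8a1 lie well to the left only in the tumor panel.

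Of the 6 type VI genes, 4 were lower in marked than in unmarked muscle cells, all 6 in marked Pecam1+ than in marked Pecam1- tumor cells, and 3 in marked Pecam1+ than in unmarked tumor cells, with 0 higher in any of these. Col6a1, Col6a2 and Col6a3 encode the classical chains of the beaded filament that surrounds muscle fibers and connective tissue cells. Col6a1 read 6.06, 5.04 and 5.70 in marked and 10.32, 10.24 and 10.48 in unmarked muscle cells, 26.9-fold lower (-4.75 ± 0.21, adjusted p = 2.04e-11). Col6a2, its neighbour on chromosome 10, read 6.23, 5.07 and 5.70 against 9.17, 8.57 and 8.84 (-3.19 ± 0.35, adjusted p = 9.01e-07). Col6a3 read 6.93, 5.84 and 6.60 against 9.70, 9.79 and 9.64 (-3.25 ± 0.25, adjusted p = 1.33e-08). Marked repeat 2 was the lowest array for all 3 genes, and no marked array reached an unmarked one.

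In the tumor the 3 classical genes were again far lower in marked Pecam1+ cells. Col6a1 read 6.39, 6.43, 6.15 and 6.83 in marked Pecam1+, 11.39, 11.26, 11.31 and 11.14 in marked Pecam1- and 10.72, 10.81, 11.03 and 10.54 in unmarked cells, 28.4-fold lower in the first than in the second (-4.83 ± 0.18, adjusted p = 7.42e-13). Col6a2 read 5.93, 5.52, 5.61 and 6.99 in marked Pecam1+, 9.74, 9.90, 9.97 and 9.05 in marked Pecam1- and 9.12, 9.36, 9.21 and 8.74 in unmarked cells (-3.65 ± 0.30, adjusted p = 2.19e-08). Col6a3 read 6.19, 5.92, 6.05 and 6.88 in marked Pecam1+, 10.35, 10.38, 10.33 and 10.01 in marked Pecam1- and 9.70, 9.95, 9.87 and 9.36 in unmarked cells (-4.01 ± 0.22, adjusted p = 9.25e-11). Repeat 4 gave the highest marked Pecam1+ array for each of the 3. Between the Pecam1- populations Col6a1 was higher in marked cells by 0.50 (adjusted p = 0.0483), a call lost with the repeat block (0.0842) and in 7 of 8 fits that left out 1 array (up to 0.126), and Col6a2 (0.56, adjusted p = 0.201) and Col6a3 (0.55, adjusted p = 0.0751) did not pass.

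Col6a4, Col6a5 and Col6a6 encode long chains that can take the place of the Col6a3 chain, and they lie side by side on chromosome 9 with no protein-coding gene between them. Col6a4 read 7.19, 6.59, 7.19 and 6.40 in marked Pecam1- tumor cells, against 4.66, 5.04, 4.53 and 4.86 in unmarked and 4.57, 4.79, 4.70 and 5.15 in marked Pecam1+ cells, and 4.39, 4.17 and 4.63 in marked and 4.29, 4.40 and 4.11 in unmarked muscle cells. Col6a5 read 7.02, 7.68, 7.34 and 6.99 in marked Pecam1- tumor cells, against 4.55, 4.84, 4.49 and 4.46 in unmarked and 4.39, 3.43, 4.12 and 4.50 in marked Pecam1+ cells, and 3.58, 3.57 and 3.69 in marked and 4.15, 4.01 and 3.81 in unmarked muscle cells. For both genes the 4 marked Pecam1- tumor arrays lay above all 14 others. Col6a5 exceeded the 40th percentile of its array in only 5 arrays and passed the filter only through the marked Pecam1- arrays, where it is high. Its tests against that population therefore describe the values and add no support. Col6a4 exceeded the percentile in 8 arrays and would have passed without that population. Most other values lay near background, which limits the size of the differences and the comparisons without a call. Col6a4 rose over unmarked cells by 2.07 ± 0.18 (4.2-fold, adjusted p = 1.02e-06) and Col6a5 by 2.67 ± 0.19 (6.37-fold, adjusted p = 1.5e-07), the largest differences of any collagen gene in that comparison. Marked Pecam1+ cells were lower than marked Pecam1- cells (-2.04 ± 0.18 for Col6a4 and -3.15 ± 0.19 for Col6a5, adjusted p = 5.12e-08 and 5.07e-10). In muscle neither gene passed (0.13, adjusted p = 0.672 and -0.38, adjusted p = 0.206), and in tumor neither passed between marked Pecam1+ and unmarked cells (0.03, adjusted p = 0.919 and -0.48, adjusted p = 0.0585).

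Col6a6 had another pattern. It read 7.70, 7.68 and 7.78 in unmarked muscle cells and 5.22, 5.31 and 5.06 in marked ones, and in tumor 5.65, 5.58, 5.53 and 5.19 in unmarked, 5.44, 5.81, 5.71 and 6.07 in marked Pecam1- and 5.53, 5.24, 5.39 and 5.37 in marked Pecam1+ cells. The 3 unmarked muscle arrays stood above the other 15. It was 5.75-fold lower in marked than in unmarked muscle cells (-2.52 ± 0.14, adjusted p = 3e-10), and its difference between marked Pecam1- and unmarked tumor cells, 0.27 ± 0.12 (95% interval 0.01 to 0.53, adjusted p = 0.126), did not pass. The lower level in marked Pecam1+ than in marked Pecam1- cells (-0.37, adjusted p = 0.0206) was lost with the repeat block (0.111), without marked Pecam1+ repeat 2 (0.0618) and without marked Pecam1- repeat 4 (0.0819). Of the promoter windows printed above, that of Col6a5 held the E-box string and those of Col6a4 and Col6a6 did not. The myogenic and leukocyte markers named with Col4a5 moved with Col6a4 and Col6a5 too, and their part was not tested.

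**Figure D4:**
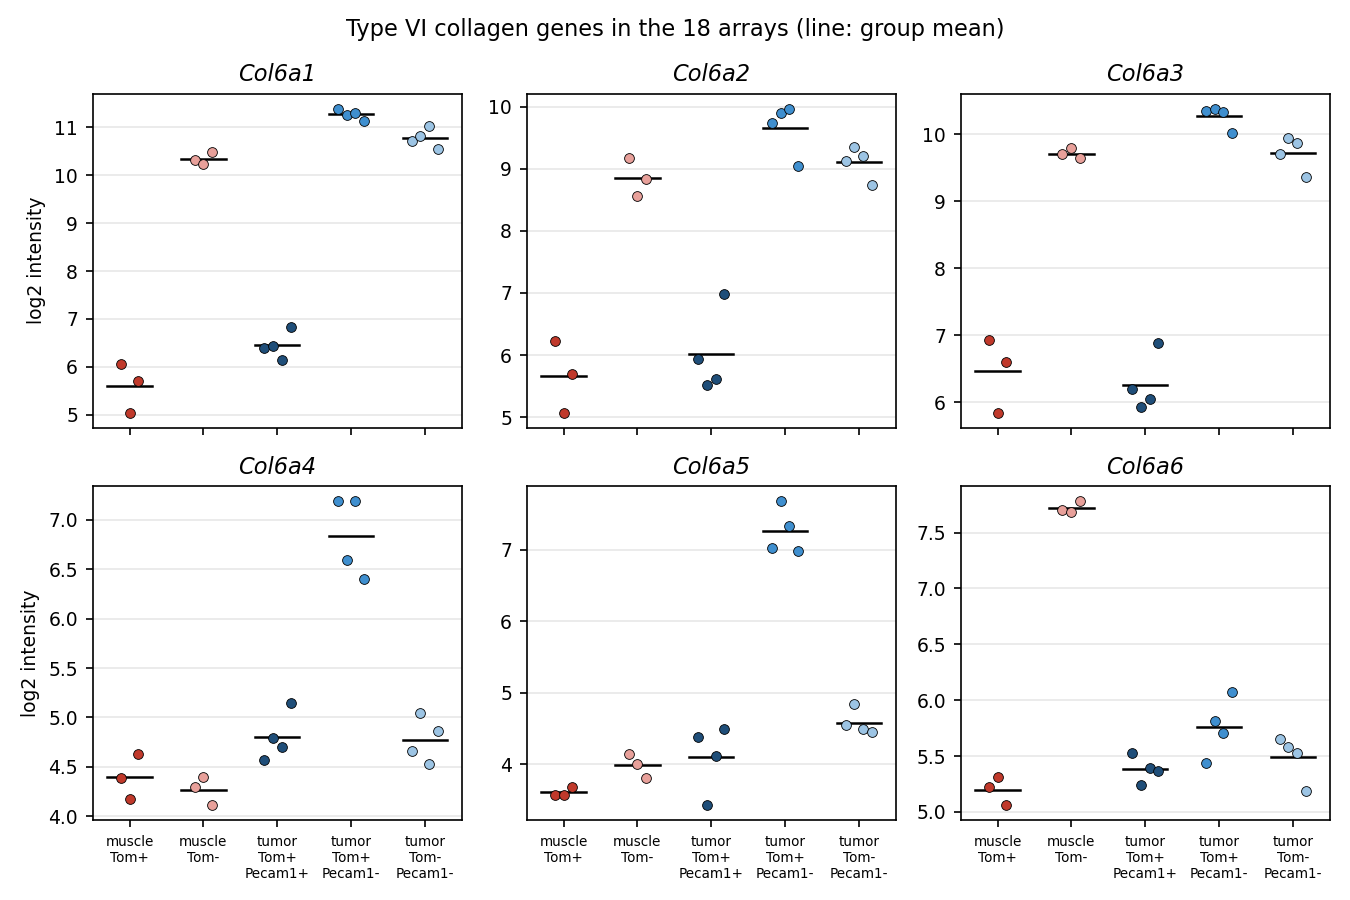
Log2 intensity (y axis, as deposited, its range differing between panels) of the 6 type VI collagen genes in the 18 arrays of the 5 populations (x axis); points are arrays and lines group means. Col6a1, Col6a2 and Col6a3 are low in both Tomato-positive populations with endothelial markers, Col6a4 and Col6a5 are raised in marked Pecam1- tumor cells, and Col6a6 in unmarked muscle cells.

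Of the 7 fibril-associated genes tested, 5 were lower in marked than in unmarked muscle cells, 4 in marked Pecam1+ than in marked Pecam1- tumor cells and 5 than in unmarked tumor cells, with 0 higher. Col14a1, which binds fibrils in tendon and skin, read 4.61, 4.92 and 4.10 in marked and 9.07, 8.44 and 8.79 in unmarked muscle cells (-4.23 ± 0.20, 18.7-fold lower, adjusted p = 4.04e-11). In tumor it read 5.04, 4.76, 4.74 and 4.58 in marked Pecam1+, 8.69, 8.79, 8.96 and 9.27 in marked Pecam1- and 8.98, 9.16, 9.01 and 8.86 in unmarked cells, with a difference of -4.15 ± 0.17 between the marked populations (adjusted p = 3.43e-12). The 2 Pecam1- populations overlapped (-0.07 ± 0.17, 95% interval -0.44 to 0.29).

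Col12a1, a large fibril-bound chain of tendon, muscle sheath and healing tissue, differed most between marked Pecam1+ and the other tumor cells. It read 6.25, 6.21, 5.61 and 5.89 in marked Pecam1+, 10.69, 10.87, 11.18 and 10.61 in marked Pecam1- and 10.84, 10.70, 10.98 and 11.28 in unmarked tumor cells, 28.8-fold lower than in marked Pecam1- (-4.85 ± 0.16, adjusted p = 2.14e-13) and 31.1-fold lower than in unmarked cells (-4.96 ± 0.16, adjusted p = 2.26e-13). In muscle it read 5.59, 5.87 and 5.74 in marked and 7.49, 7.78 and 7.74 in unmarked cells, a smaller gap of -1.94 ± 0.18 (adjusted p = 1.61e-07). Marked muscle and marked Pecam1+ tumor cells together spanned 5.59 to 6.25, while unmarked tumor cells lay above unmarked muscle cells. Col20a1 read 7.22, 8.19 and 7.65 in unmarked and 5.58, 5.05 and 5.59 in marked muscle cells (-2.28 ± 0.23, adjusted p = 4.39e-07), and 6.43, 6.39, 6.60 and 6.90 in unmarked, 6.14, 5.96, 5.47 and 5.57 in marked Pecam1- and 5.50, 5.71, 6.0 and 5.60 in marked Pecam1+ tumor cells. In the tumor every unmarked array lay above every marked one. Marked Pecam1- cells were lower than unmarked ones (-0.79 ± 0.20, adjusted p = 0.00802), a call lost without repeat 4 of every population (0.0688).

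Smaller shifts marked the other members of this class. Col16a1, a minor chain found in many tissues, read 6.79, 6.79, 6.75 and 6.87 in marked Pecam1-, 6.44, 6.65, 6.54 and 6.23 in unmarked and 6.17, 5.97, 6.12 and 6.31 in marked Pecam1+ tumor cells, and 5.15, 4.93 and 5.07 in marked and 5.48, 5.25 and 5.37 in unmarked muscle cells. It was lower in marked Pecam1+ than in marked Pecam1- cells (-0.66 ± 0.10, adjusted p = 2.94e-05). Its 3 other within-tissue calls (-0.31 in muscle, 0.33 and -0.32 against unmarked tumor cells) were lost with the repeat block (adjusted p = 0.0589, 0.125 and 0.0853), and in 4 of 6, 3 of 8 and 2 of 8 fits that left out 1 array (up to 0.133, 0.0669 and 0.0545). Col22a1, found at the junction of muscle and tendon, was lower in marked muscle cells (-0.61 ± 0.12) and in marked Pecam1+ against marked Pecam1- tumor cells (-0.89 ± 0.10), with adjusted p = 0.000413 and 1.17e-06. Col9a2, a cartilage chain, read 6.16, 5.94 and 6.08 in marked and 6.12, 6.22 and 5.83 in unmarked muscle cells and 7.05 to 7.54 in marked Pecam1+, 7.04 to 7.16 in marked Pecam1- and 7.22 to 7.77 in unmarked tumor cells, and neither it nor Col9a3, which shares type IX with it, passed in any comparison within a tissue.

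The multiplexins are Col15a1 and Col18a1. Col15a1, a chain of the basement membrane zone of muscle and capillaries, read 7.59, 8.38 and 8.35 in marked and 8.77, 9.03 and 8.83 in unmarked muscle cells, and its difference of -0.77 ± 0.31 did not pass (adjusted p = 0.0571) without the repeat block and passed with it (0.00845). In tumor it read 9.28, 8.73, 8.84 and 8.50 in marked Pecam1+, 8.75, 8.99, 8.74 and 9.98 in marked Pecam1- and 7.93, 8.24, 8.38 and 7.49 in unmarked cells. Both marked populations were higher than unmarked cells, marked Pecam1- by 1.10 ± 0.27 (adjusted p = 0.00537) and marked Pecam1+ by 0.83 ± 0.27 (adjusted p = 0.0189), and with the repeat block neither passed (0.0503 and 0.0801). The second call was also lost without marked Pecam1+ repeat 1 (0.0667) or unmarked repeat 4 (0.0669). Col18a1, the chain that releases endostatin, read 5.73, 5.96 and 5.78 in marked and 6.69, 6.89 and 6.57 in unmarked muscle cells (-0.89 ± 0.24, adjusted p = 0.00604), and 7.85, 7.06, 7.26 and 6.62 in marked Pecam1+, 7.14, 7.60, 7.39 and 7.59 in marked Pecam1- and 6.53, 6.86, 6.86 and 7.31 in unmarked tumor cells, where no comparison within the tumor passed.

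Among short-chain genes, Col8a1, a sheet-forming chain of vessel walls and cornea, changed side between tissues. It read 8.47, 8.13 and 8.01 in marked and 7.71, 7.27 and 7.56 in unmarked muscle cells, higher in marked cells by 0.69 ± 0.16 (adjusted p = 0.0024). In tumor it read 9.10, 8.96, 9.17 and 8.78 in marked Pecam1+, 11.16, 11.14, 11.19 and 10.97 in marked Pecam1- and 11.05, 11.22, 10.96 and 11.57 in unmarked cells, lower in marked Pecam1+ than in marked Pecam1- and unmarked cells (-2.11 ± 0.14 and -2.20 ± 0.14, adjusted p = 1.26e-09 and 8.24e-10). No array of one population overlapped another in these comparisons. Col8a2, its partner chain, read 4.58 to 5.03 in marked and 4.75 to 5.19 in unmarked muscle cells and 4.65, 4.13, 4.38 and 4.92 in marked Pecam1+, 5.02, 5.47, 5.26 and 5.02 in marked Pecam1- and 5.63, 5.71, 5.67 and 5.37 in unmarked tumor cells, lower in marked Pecam1+ than in unmarked cells (-1.08 ± 0.16, adjusted p = 3.59e-05). Col10a1, known from growth plate cartilage, read 7.28, 7.10, 7.13 and 6.93 in marked Pecam1- tumor cells against 6.15, 6.12, 6.23 and 6.36 in unmarked and 6.37, 6.58, 6.45 and 6.52 in marked Pecam1+ cells, and 5.42 to 5.87 in marked and 5.08 to 5.49 in unmarked muscle cells. All 4 marked Pecam1- arrays lay above the others, by 0.89 ± 0.11 over unmarked cells (adjusted p = 3.58e-05).

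Of the 4 transmembrane genes, 0 passed in muscle and between marked Pecam1- and unmarked tumor cells, and Col13a1 alone was higher in marked Pecam1+ tumor cells. Col13a1, a transmembrane chain of cell adhesion sites and the neuromuscular junction, read 6.85, 6.51, 6.49 and 6.70 in marked Pecam1+ tumor cells against 5.50, 5.50, 5.68 and 5.53 in marked Pecam1- and 5.43, 5.75, 5.60 and 5.54 in unmarked cells, and 5.56, 5.72 and 5.36 in marked and 5.77, 5.68 and 5.56 in unmarked muscle cells. The 4 marked Pecam1+ arrays stood above all 14 others. It rose by 1.08 ± 0.10 over marked Pecam1- cells (2.12-fold, adjusted p = 1.39e-07) and did not pass between marked and unmarked muscle cells (-0.12, adjusted p = 0.459). Col23a1 read 5.42 to 5.96 in marked and 5.59 to 5.65 in unmarked muscle cells and 6.07 to 6.49 in marked Pecam1+, 5.93 to 6.22 in marked Pecam1- and 5.97 to 6.30 in unmarked tumor cells and passed in no comparison. Col17a1, of the anchoring structures of skin, and Col7a1, the chain of anchoring fibrils, passed in none within a tissue. Col25a1 passed between the marked tumor populations (-0.37, adjusted p = 0.0393), and that call was lost with the repeat block (0.0933) and in 6 of 8 fits that left out 1 array (up to 0.107).

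Col26a1 read 5.84, 5.96 and 5.66 in marked and 6.59, 6.77 and 6.77 in unmarked muscle cells (-0.89 ± 0.13, adjusted p = 2.47e-05), and 6.35, 6.18, 6.12 and 6.60 in marked Pecam1+, 7.06, 7.24, 7.34 and 6.96 in marked Pecam1- and 6.84, 6.85, 6.80 and 6.70 in unmarked tumor cells (-0.84 ± 0.11 between the marked populations, adjusted p = 8e-06). Its excess in marked Pecam1- over unmarked cells, 0.35 (adjusted p = 0.0274), was lost with the repeat block (0.145) and in 3 of 8 fits that left out 1 array (up to 0.0914). Col28a1, known from peripheral nerve, read 7.48, 6.87, 7.64 and 7.74 in marked Pecam1-, 6.27, 6.98, 6.66 and 6.38 in unmarked and 6.67, 6.56, 6.12 and 6.30 in marked Pecam1+ tumor cells, and 6.34 to 6.73 in marked and 5.69 to 6.32 in unmarked muscle cells. Marked Pecam1- cells were higher than unmarked cells (0.86 ± 0.20, adjusted p = 0.00504), and marked Pecam1+ cells were lower than marked Pecam1- cells (-1.02 ± 0.20, adjusted p = 0.000575), although marked Pecam1- repeat 2 at 6.87 lay below unmarked repeat 2 at 6.98.

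Unmarked tumor cells were set against unmarked muscle cells on centred values, where 17 of the 42 genes were called (48.7% of all genes), 9 higher (23.8%) and 8 lower (24.9%). The median difference of the 42 was -0.03 and that of all genes tested -0.02. Single genes differed widely. Col8a1 was higher in tumor by 3.35 ± 0.15 (10.2-fold, adjusted p = 1.85e-10), Col12a1 by 2.94 ± 0.17 (7.68-fold, adjusted p = 2.35e-09) and Col11a1 by 1.40 ± 0.31 (2.64-fold, adjusted p = 0.00135). Col9a2, Col9a3, Col16a1 and Col10a1 were higher by 1.02, 0.78, 0.76 and 0.62 (adjusted p = 1.54e-05, 0.00155, 2.11e-05 and 0.000482). Col5a2 and Col22a1 passed narrowly (0.41 and 0.27, adjusted p = 0.0342 and 0.0453), and both were lost with the repeat block (0.0706 and 0.0977) and in 4 and 6 of 7 fits that left out 1 array (up to 0.099 and 0.133). Between tissues this block joined muscle and tumor arrays by repeat number, although the numbers pair no samples there.

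On the other side, Col6a6 was 5.95-fold lower in unmarked tumor than in unmarked muscle cells (-2.57 ± 0.13, adjusted p = 5.93e-10). Col20a1, Col15a1 and Col1a1 were lower too, at -1.44 ± 0.22, -1.20 ± 0.29 and -0.85 ± 0.16 (adjusted p = 4.75e-05, 0.00255 and 0.000263). Col4a3 and Col4a5 were lower at -0.84 and -0.78 (adjusted p = 1.44e-06 and 0.00139), and Col13a1 and Col17a1 at -0.43 and -0.34 (adjusted p = 0.00426 and 0.00322). On the values as deposited 26 genes were called, 20 higher and 6 lower, and neither Col13a1 (-0.09, adjusted p = 0.503) nor Col17a1 passed. Col1a2 (0.11 ± 0.23, 95% interval -0.37 to 0.59) and Col3a1 (-0.50 ± 0.21, -0.93 to -0.06) did not pass (adjusted p = 0.712 and 0.0549). Other cell types differed between these populations as well: 9 of 10 leukocyte markers were higher in tumor (list means 8.93 to 9.91 against 7.11 to 7.32), 4 of 8 tendon markers and 4 of 6 chondrocyte markers were higher, and 11 of 12 endothelial, 7 of 10 myogenic, 5 of 10 pericyte and smooth muscle and 5 of 6 Schwann cell markers were lower. Their part was not tested.

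Marked Pecam1+ tumor cells were set against marked muscle cells in the same way, and 13 of 42 genes were called (34.2% of all genes), 10 higher (15.7%) and 3 lower (18.5%). As deposited 24 were called, 24 higher and 0 lower, so the split depends on the scaling. With a stricter filter at the 60th percentile 8 of 33 were called, 8 higher and 0 lower. Col18a1 was higher in tumor by 1.01 ± 0.22 (2.02-fold, adjusted p = 0.00227), Col9a2 by 0.95 ± 0.14, Col16a1 by 0.74 ± 0.11 and Col13a1 by 0.73 ± 0.11 (adjusted p = 6.48e-05, 6.43e-05 and 9.48e-05). Col10a1, Col4a4 and Col4a6 were higher by 0.53, 0.50 and 0.46 (adjusted p = 0.00301, 0.000902 and 0.00884). Col1a2 passed at 0.87 (adjusted p = 0.00736) with overlapping groups, its further probe set differed by 0.09, and the call was lost without marked muscle repeat 2 (0.0537). Col5a3 and Col8a1 (0.47 and 0.45, adjusted p = 0.0364 and 0.0312) were lost with the repeat block (0.0768 and 0.062) and in 3 and 4 of 7 fits that left out 1 array (up to 0.158 and 0.129).

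Lower in marked Pecam1+ tumor cells were Col8a2 (-0.70 ± 0.17), Col4a3 (-0.54 ± 0.09) and Col17a1 (-0.44 ± 0.08), on centred values (adjusted p = 0.00482, 0.000259 and 0.00074), and none of the 3 passed on the values as deposited (adjusted p = 0.105, 0.0986 and 0.4). The main basement membrane genes did not pass (Col4a1 -0.43 ± 0.23, 95% interval -0.92 to 0.06; Col4a2 -0.31 ± 0.25, -0.82 to 0.21). Of 12 endothelial markers 2 were higher in tumor and 10 did not pass, 6 of 10 pericyte and smooth muscle markers were lower (list means 7.01 to 7.38 against 7.01 to 8.30) and 6 of 11 fibroblast markers were higher. Their part was not tested.

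**Figure D5:**
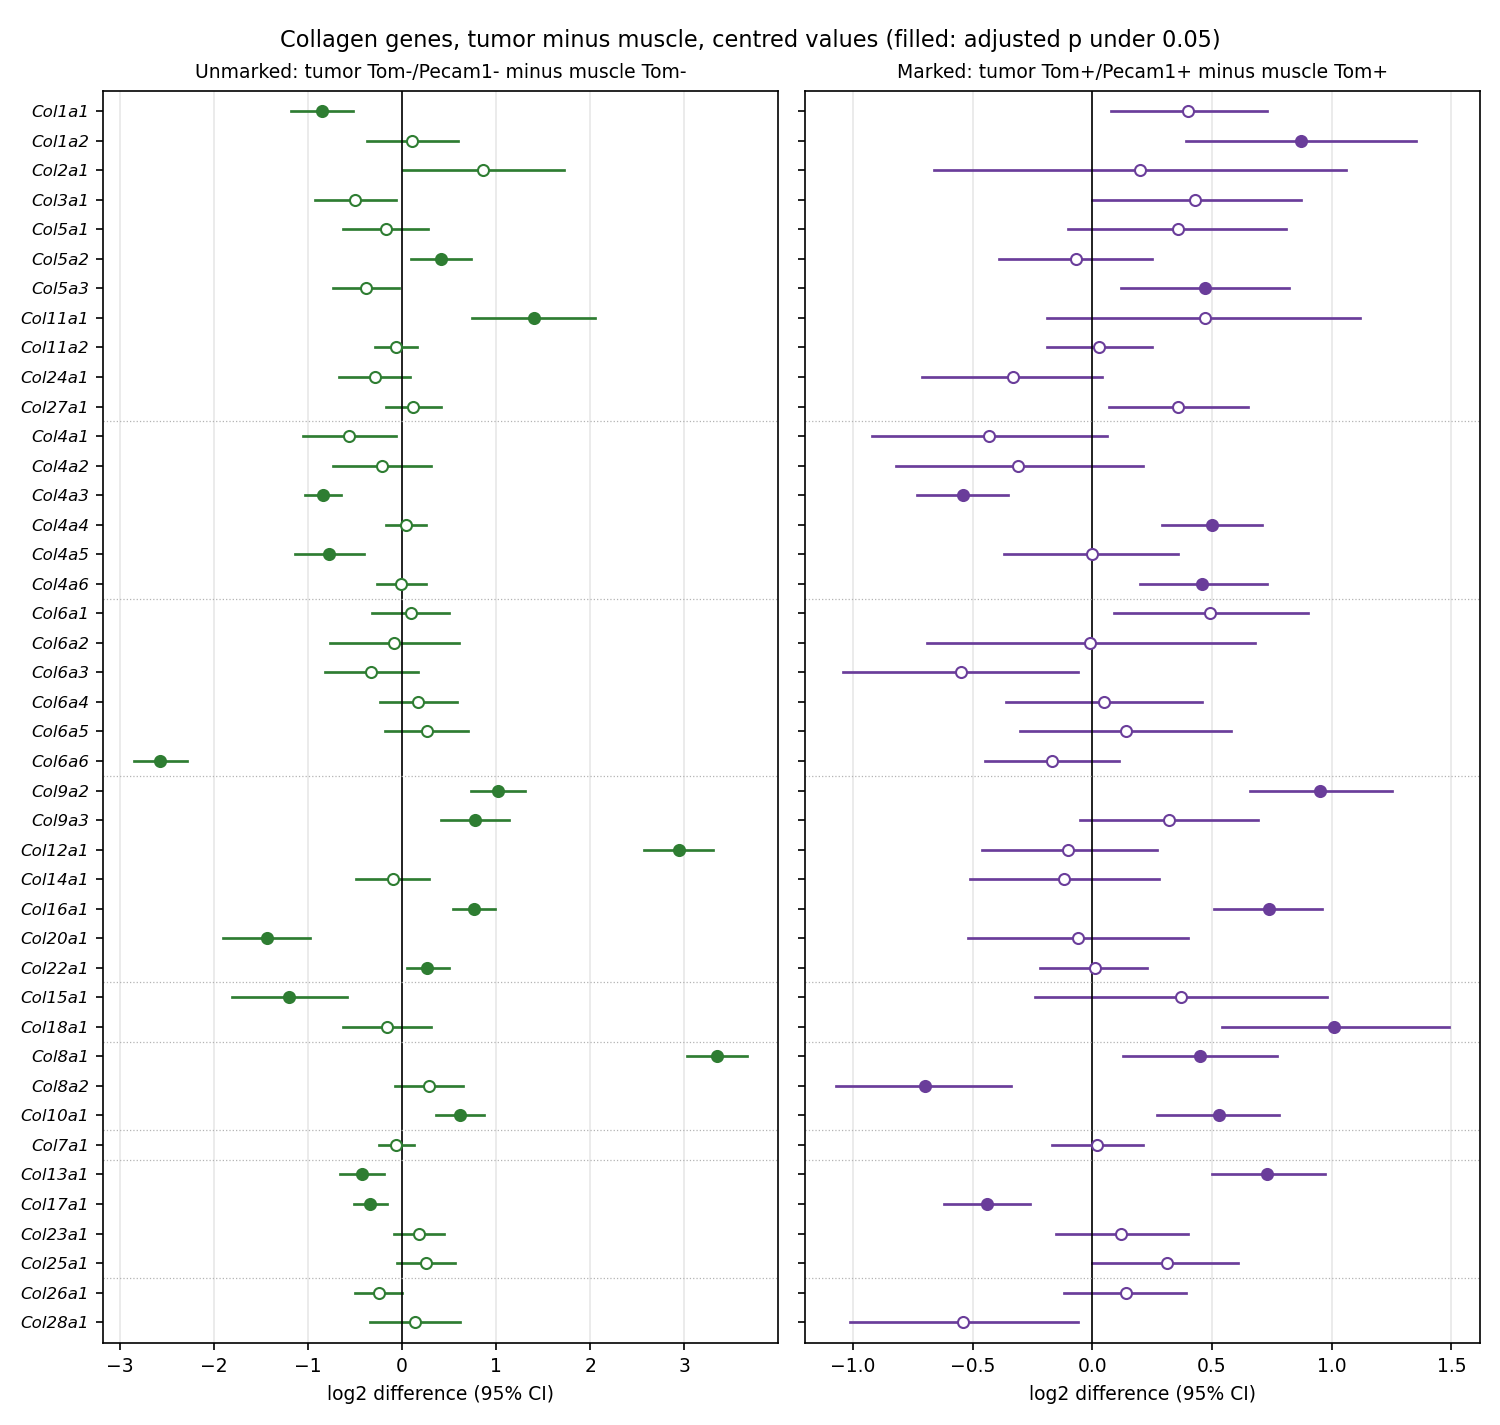
Log2 difference (x axis, with 95% confidence interval from limma, values centred on array medians) of the 42 tested collagen genes (y axis, dotted lines between classes) for unmarked tumor minus unmarked muscle cells (left) and marked Pecam1+ tumor minus marked muscle cells (right), with a wider x range on the left; filled points passed an adjusted p of 0.05. On the left Col8a1, Col12a1 and Col11a1 lie to the right of 0 and Col6a6 to the left, and on the right Col18a1, Col9a2, Col16a1 and Col13a1 are the genes furthest to the right apart from Col1a2.

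Whether the gap between marked and unmarked cells had the same size in tumor (marked Pecam1+ less unmarked) and muscle was tested as a difference of differences, in which a shift common to a tissue cancels. It was called for 13 of 42 genes (17.2% of all genes), 10 with a more positive gap in tumor (8.11%) and 3 with a more negative one (9.09%). Col12a1 fell by 4.96 in tumor and 1.94 in muscle, a difference of -3.02 ± 0.24 (adjusted p = 5.12e-07), and Col8a1 fell by 2.20 in tumor and rose by 0.69 in muscle, a difference of -2.88 ± 0.21 (adjusted p = 2.35e-07). Col8a2 differed by -0.97 ± 0.25 (adjusted p = 0.0117). Col6a6 fell by 2.52 in muscle and stood at -0.11 in tumor (adjusted p = 0.532), a difference of 2.42 ± 0.19 (adjusted p = 3.93e-07). More positive in tumor were also Col1a1 by 1.27 ± 0.22, Col20a1 by 1.40 ± 0.31 and Col13a1 by 1.18 ± 0.16 (adjusted p = 0.000839, 0.00482 and 8.24e-05). The multiplexins Col15a1 and Col18a1 differed by 1.59 ± 0.41 and 1.19 ± 0.31 (adjusted p = 0.0116 and 0.0138). By the same test 11 of 12 endothelial, 7 of 11 fibroblast and 6 of 10 myogenic markers had a more positive gap in tumor. A more negative gap was called for 1 fibroblast, 1 myogenic and 9 of 10 leukocyte markers. The part of these markers was not tested.

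The other 4 of these calls were weaker. Col5a3 (0.87, adjusted p = 0.0181) was lost without marked muscle repeat 3 (0.0576). Col3a1, Col4a4 and Col4a5 (0.95, 0.48 and 0.79, adjusted p = 0.0333, 0.028 and 0.035) were lost with the repeat block (0.0689, 0.0588 and 0.07) and in 5, 4 and 7 of 14 fits that left out 1 array (up to 0.099, 0.0809 and 0.0973). For Col4a1 and Col4a2 the difference did not pass, at 0.14 (95% interval -0.54 to 0.82) and -0.08 (-0.80 to 0.64), nor did it for Col14a1 (0.01, -0.55 to 0.56) and Col6a1 (0.42, -0.15 to 0.99).

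Genes that fold and modify procollagen, secrete and process it or bind it outside the cell are set here beside all genes tested, of which 20.5% were lower and 19.1% higher in marked muscle cells, and 23.6% lower and 21% higher in marked Pecam1+ than in marked Pecam1- tumor cells. Of 16 folding and modification genes tested, 8 were lower and 2 higher in marked than in unmarked muscle cells, and 12 lower and 2 higher in marked Pecam1+ than in marked Pecam1- tumor cells. The lysyl hydroxylase gene Plod2 was lower (-1.43 and -2.35, adjusted p = 1.29e-06 and 3.09e-10), while its relative Plod1 was higher by 1.13 and 1.56 (adjusted p = 8.16e-07 and 1.64e-09). The prolyl 3-hydroxylase family members P3h3 and P3h4 were lower in marked muscle cells (-0.94 and -1.10) and P3h1 in marked Pecam1+ tumor cells (-1.82; adjusted p = 8.75e-06, 3.46e-05 and 8.06e-10). Colgalt2, a collagen galactosyltransferase, was higher in marked Pecam1+ than in marked Pecam1- tumor cells by 3.53 (11.5-fold, adjusted p = 2.55e-10).

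Of 15 secretion, processing and crosslinking genes tested, 9 were lower and 2 higher in marked muscle cells and 8 lower and 1 higher in marked Pecam1+ than in marked Pecam1- tumor cells. The crosslinking oxidase Loxl1 was lower at -3.01 and -3.50, its relative Loxl3 at -3.50 in the tumor comparison, and the procollagen proteinase enhancers Pcolce at -2.07 and -2.40 and Pcolce2 at -3.57 in muscle (adjusted p = 8.66e-11, 1.05e-12, 1.03e-11, 1.04e-07, 1.87e-09 and 9.25e-09). The proteinase Tll1 went the other way and was higher by 2.18 and 2.26 (adjusted p = 6.78e-09 and 4.23e-10). Of 10 receptors and uptake genes tested, 5 were lower and 1 higher in muscle and 6 lower and 2 higher in the tumor comparison. The integrin chain Itga11, the kinase Ddr2 and the uptake receptor Mrc2 were lower at -2.79, -3.13 and -2.28 in muscle and at -2.96, -2.91 and -2.68 in tumor (adjusted p = 8.62e-09, 2.86e-08, 1.6e-08, 4.02e-10, 8.11e-09 and 2e-10). Integrin chains higher in these cells included Itga1 in muscle (1.56, adjusted p = 9.65e-07) and Itga2 in tumor (1.92, adjusted p = 4.64e-07).

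Between marked Pecam1- and unmarked tumor cells, where 13.4% of all genes were higher and 12% lower, there were 4 folding genes higher and 2 lower, 3 processing genes higher and 2 lower, and 1 receptor gene higher and 5 lower. The prolyl 4-hydroxylase gene P4ha3 was lower at -1.20 and the processing protease Adamts3 at -1.14 (adjusted p = 0.000983 and 0.00206). Adamts14, a protease of the same family, was higher by 0.74 and the basement membrane peroxidase Pxdn, which crosslinks type IV collagen, by 0.95 (adjusted p = 0.000394 and 0.000849). P3h2, P3h4 and P3h1 were higher by 0.69, 0.60 and 0.47 (adjusted p = 0.00476, 0.00544 and 0.00637). Of the receptor and uptake genes, Lair1, Ctsk and Itga1 were lower at -1.47, -1.17 and -0.48, and Ddr1 was higher by 0.70 (adjusted p = 0.00239, 0.004, 0.0259 and 0.0121). In unmarked tumor against unmarked muscle cells, 5 folding genes were higher and 3 lower, 5 processing genes higher and 4 lower, and 3 receptor genes higher and 3 lower. Of all genes 23.8% were higher and 24.9% lower. P4ha3 was higher by 2.37, Lox by 2.46, Loxl3 by 1.77 and Loxl1 by 1.43 on centred values (adjusted p = 8.03e-07, 1.71e-06, 3.98e-07 and 5.42e-07), and the leukocyte collagen receptor Lair1 by 2.72 (adjusted p = 6.89e-06). Lower were Adamts14 at -1.03, Colgalt2 at -0.85 and Itga2 at -0.74 (adjusted p = 1.24e-05, 0.00596 and 0.0111). In marked Pecam1+ tumor against marked muscle cells, P3h2 and Loxl1 were higher by 1.40 and 1.18, and P4ha1 and Itga1 lower at -0.77 and -0.98 (adjusted p = 1.97e-05, 1.02e-05, 0.000844 and 0.000261).

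Neighbouring collagen genes did not always move together. Col3a1 and Col5a2 on chromosome 1 were both lower in marked muscle and marked Pecam1+ tumor cells, Col6a2 and Col6a1 on chromosome 10 likewise, and Col4a1 and Col4a2 on chromosome 8 were both higher. On chromosome 9, Col6a4 and Col6a5 rose in marked Pecam1- tumor cells by 2.07 and 2.67 where Col6a6 stood at 0.27, and in muscle Col6a6 fell by 2.52 where the other 2 did not pass.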

How the data were processed

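RNA of 18 sorted samples, which the labels call biological repeats, was amplified and hybridised to mouse gene arrays. The values are the log2 intensities as deposited by the authors, for which the submitters' processing notes name RMA, a background correction, quantile normalisation and probe summary, and the Partek software; versions and order of steps are not given in the sources used here. Only the 23521 of 41345 probe sets that the platform annotation gives a single gene symbol were used (1814 had several symbols, 16010 no symbol). Genes were tested when at least 3 arrays lay above the 40th percentile of all probe sets of their array (16011 tested, 6169 left out). Every adjusted p is from limma 3.58.1 (R 4.3.3), with moderated variances and Benjamini-Hochberg adjustment over all genes tested in a comparison. An adjusted p under 0.05 is a call. The main fits took 1 mean per group over all 18 arrays (13 residual degrees of freedom). Fits that left out arrays used those that remained. Within a tissue, the fit with the repeat block used the arrays of that tissue alone. Tumor was compared with muscle on values centred on array medians. With 3 or 4 arrays a group, their number sets the precision. The fit was tested on simulated data in which all arrays were independent. Those data lacked the equal repeat means of the tumor arrays, so that test does not cover p-values that use tumor arrays.

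The collagen genes, their classes, the marker and pathway lists and the genes named were chosen with earlier results of these data known. Named were the genes with the 6 largest called differences per comparison and those called in the difference between tissues, with all other tested collagen genes given at least once. Pathway genes were named from the 4 of smallest adjusted p per list and comparison, and not all of these are given. Arrays with the same repeat number were checked for pairing by the correlation of their deviations from group means. It was 0.27 to 0.31 in muscle (others -0.19 to -0.09), and in tumor the equal repeat means make the check void. Muscle arrays of the same number thus deviated together, but the labels do not say what they share. The main fit does not take this into account. The model with the repeat number as a block is an alternative. Within the tumor the equal repeat means leave the block nothing to adjust. There its fit differs from the main one in the arrays used and in the degrees of freedom. For tumor against muscle and the difference between tissues the block spanned both tissues. Between tissues, arrays of the same number correlated at -0.11 to 0.07 (others -0.09 to 0.10), so there the block accounts for no pairing of samples. Promoter windows were taken from RefSeq tables by symbol.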

Additional observations from a re-analysis of the deposited data

Results flagged for a closer look

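In 11 of the 126 groups of 4 tumor arrays examined for the collagen genes, the highest or lowest array stood apart from the other 3, by a gap past Dixon's 95% critical value. Chance alone gives about 1 in 20, and the tied repeats make arrays of different populations dependent. Of these, 3 belong to repeat 2 for Col2a1, at 8.36 in unmarked cells, 5.15 in marked Pecam1- cells and 5.14 in marked Pecam1+ cells. Repeat 4, the only one of day 38, stood apart in 6: Col11a1 at 5.74, Col4a1 at 9.62 and Col6a3 at 10.01 in marked Pecam1- cells, and Col5a3 at 6.81, Col24a1 at 5.29 and Col23a1 at 6.49 in marked Pecam1+ cells. Its marked Pecam1+ array also had the lowest endothelial and the highest myogenic and leukocyte list means of its group. Unmarked repeat 1 was low for Col4a5, at 5.10, and marked Pecam1- repeat 3 high for Col13a1, at 5.68.

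The gap between marked (Pecam1+ in tumor) and unmarked cells differed between tumor and muscle for 13 genes by the interaction test in limma. It was more positive in tumor for Col6a6 (2.42, adjusted p = 3.93e-07), Col15a1 (1.59, 0.0116), Col20a1 (1.40, 0.00482), Col1a1 (1.27, 0.000839), Col18a1 (1.19, 0.0138), Col13a1 (1.18, 8.24e-05), Col3a1 (0.95, 0.0333), Col5a3 (0.87, 0.0181), Col4a5 (0.79, 0.035) and Col4a4 (0.48, 0.028). It was more negative in tumor for Col12a1 (-3.02, 5.12e-07), Col8a1 (-2.88, 2.35e-07) and Col8a2 (-0.97, 0.0117).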

How the results depend on the processing

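Of the calls in the 7 comparisons, those made in every fit that left out 1 array and with the repeat number as a block were 21 of 27 in muscle, 8 of 15 between marked Pecam1- and unmarked tumor cells, 25 of 29 and 21 of 24 for marked Pecam1+ against marked Pecam1- and unmarked tumor cells, 10 of 13 for marked Pecam1+ tumor against marked muscle, 15 of 17 for unmarked tumor against unmarked muscle and 9 of 13 for the difference between tissues. Counts without 1 array ranged, in that order, over 22 to 29, 10 to 14, 26 to 29, 22 to 26, 11 to 15, 15 to 18 and 10 to 14. The repeat block, fitted here on the arrays of the tissue alone, left 8 calls in place of 15 between marked Pecam1- and unmarked tumor cells. In muscle it left 25 of 42 genes called. For tumor against muscle and the difference between tissues the block spanned both tissues, whose repeat numbers do not pair. Without muscle repeats 1 and 2, where 1 array per muscle population remained and was assumed to vary like the other groups, 17 were called in muscle, 8 in marked Pecam1+ tumor against marked muscle and 5 in the difference between tissues. Marked Pecam1+ tumor against marked muscle gave 8 calls with the 60th percentile filter and 24 on values as deposited, and unmarked tumor against unmarked muscle 26 as deposited. There Col11a2, Col4a6 and Col7a1 turned to 0.27, 0.33 and 0.28 and Col17a1 to 0.00. Without repeat 2 of every tumor population, a setting chosen after seeing the data, counts stayed within 1.5 times. Signal near background limits Col9a1 and Col19a1, which were not tested, and Col6a4 and Col6a5 in most arrays outside marked Pecam1- tumor cells. Other tested genes lay low too. Among the genes of an array, Col4a4 reached at most percentile 40.6 and Col8a2 at most 47.8. In their lowest arrays Col11a1 stood at percentile 29.2 and Col14a1 at 28.4. This limits the size of their differences.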
